A study of Mus musculus with 64 samples.

Results

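The genes described here are those of the proteasome, taken as every row of the deposited count table whose symbol begins with Psma, Psmb, Psmc, Psmd, Psme, Psmf or Psmg followed by a number. The rule took 50 of 39153 rows, after 4 matching names ending in -ps were left out. Of the 50, 48 are genes of the proteasome proper, and 2 match by symbol alone, namely Psmc3ip, a meiotic recombination factor, and Psme2b, a gene named for its likeness to Psme2 that may share reads with it. By role the members comprised 7 genes of the 20S alpha ring, 4 structural genes of the 20S beta ring, the 3 constitutive catalytic genes Psmb5, Psmb6 and Psmb7, the 3 immunoproteasome genes Psmb8, Psmb9 and Psmb10, 6 ATPases and 11 other subunits of the 19S cap, 4 activators, 1 inhibitor, 4 chaperones of 20S assembly, 3 chaperones of 19S assembly, the testis alpha gene Psma8 and the thymus beta gene Psmb11.

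RNA was sequenced from the right ventricle (RV) and left ventricle (LV) of 32 mice on a C57BL6 background, giving 64 libraries. Single animals are called by the part that the titles of their 2 libraries share. The cKO mice carried floxed Pkp2 and a tamoxifen-inducible Cre driven by the αMyHC promoter, so that the desmosomal gene Pkp2 was deleted in cardiomyocytes alone, and they received the HBSS vehicle (n = 4 animals). In 3 further groups of the same genotype the virus AAV9:mPkp2, which carries mouse Pkp2, was given: AAV_3E13 at 3e13 vector genomes per kg (n = 8) and AAV_1E14 at 1e14 (n = 5), both dosed 1 week before tamoxifen by the labels, although the study elsewhere describes an early dose given after it, and AAV_1E14_2.5wk at 1e14 dosed 2.5 weeks after it (n = 6). WT mice were Cre-negative floxed littermates given the vehicle (n = 9). The cKO hearts were collected much sooner after tamoxifen than those of every other group, so the effects of the deletion and of age cannot be told apart in any comparison that includes cKO.

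The proteasome is the barrel that degrades ubiquitin-tagged proteins. Its 20S core has outer alpha rings that gate the entry and inner beta rings that hold the active sites, and its 19S cap recognises ubiquitin, unfolds the substrate with a ring of ATPases and feeds it into the core. In interferon-exposed cells and in leukocytes the catalytic subunits Psmb6, Psmb7 and Psmb5 are exchanged for Psmb9, Psmb10 and Psmb8, which favours peptides that fit MHC class I. In heart muscle the proteasome removes damaged sarcomeric and desmosomal proteins, which muscle ubiquitin ligases mark for it.

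The promoters of genes that the results turn on are printed to show their letters beside the values that follow. They come from RefSeq (GRCm38.p6) and run from 250 bases before to 50 bases after the start site, 5′ to 3′ on the gene's strand, with the matched motif in capitals. In Psme1 the capitals mark the interferon response motif (GAAA, any 2 bases, GAAA), in Psmb8 TTCNNNGAA, the STAT motif, and in Psmc6 and Psmd12 TGACNNNGC, the antioxidant response motif, on the reverse strand in all but Psmb8, whose motif reads alike on both strands.
Psme1, chr14:55578244-55578543, plus strand: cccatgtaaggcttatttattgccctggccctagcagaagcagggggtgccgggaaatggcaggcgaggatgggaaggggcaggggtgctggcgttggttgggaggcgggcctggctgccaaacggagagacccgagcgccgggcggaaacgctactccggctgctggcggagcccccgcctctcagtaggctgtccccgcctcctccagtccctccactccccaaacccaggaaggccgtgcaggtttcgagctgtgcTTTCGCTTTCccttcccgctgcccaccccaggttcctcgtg
Psmb8, chr17:34197945-34198244, plus strand: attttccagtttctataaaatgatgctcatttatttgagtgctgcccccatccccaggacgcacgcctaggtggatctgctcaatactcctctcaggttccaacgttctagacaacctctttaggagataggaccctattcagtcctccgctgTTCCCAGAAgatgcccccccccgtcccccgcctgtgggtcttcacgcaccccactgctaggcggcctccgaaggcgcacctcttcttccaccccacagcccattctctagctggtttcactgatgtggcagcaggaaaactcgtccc
Psmc6, chr14:45329574-45329873, plus strand: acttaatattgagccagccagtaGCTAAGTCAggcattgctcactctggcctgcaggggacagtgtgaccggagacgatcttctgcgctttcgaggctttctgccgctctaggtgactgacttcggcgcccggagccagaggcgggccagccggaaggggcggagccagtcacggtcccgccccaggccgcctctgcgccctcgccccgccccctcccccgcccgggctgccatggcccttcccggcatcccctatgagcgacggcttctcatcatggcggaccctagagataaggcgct
Psmd12, chr11:107479278-107479577, plus strand: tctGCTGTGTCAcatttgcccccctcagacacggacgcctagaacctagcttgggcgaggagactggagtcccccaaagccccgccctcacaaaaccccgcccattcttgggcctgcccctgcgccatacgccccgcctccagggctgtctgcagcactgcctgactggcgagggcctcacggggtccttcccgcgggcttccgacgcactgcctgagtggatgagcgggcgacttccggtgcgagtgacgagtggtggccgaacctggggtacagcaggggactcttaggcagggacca
Both strands were searched in the 45 promoters of 42 members with an entry. Shares of members are per gene and shares of all are per promoter, so their units differ. The interferon motif stood in 5 of the 42 (11.9%; Psmb3, Psmd4, Psmd9, Psme1 and Psmg4), against 3.44% of all 32851 promoters. The STAT motif stood in 3 (7.14%; Psmb8, Psmd2 and Psmg1), against 8.30% of all, and the antioxidant motif in 6 (14.3%; Psmb5, Psmb6, Psmc6, Psmd12, Psmd9 and Psme4), against 12.4% of all. Of these genes only Psmd9 held more than 1 of the 3 motifs. A match is a description of the letters and not evidence of binding.

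Across the 64 libraries the total was 7.96 M to 14.6 M estimated counts (M, 1e+06), of which 16.6 to 40.2% came from mitochondrially encoded genes. Single levels are given as CPM, counts per 1e+06 counts of the library. For CPM the library size left out mitochondrially encoded genes and was scaled by edgeR's TMM factor. Pkp2 averaged 58.9 CPM in cKO RV and 67.0 in cKO LV, 297 and 299 in AAV_3E13, 1306 and 1419 in AAV_1E14, and 1927 and 2321 in AAV_1E14_2.5wk, against 150 and 193 CPM in WT RV and LV, which fits the labels. Animal PKP2_m1e14_2.5wk_5814 of AAV_1E14_2.5wk had the female transcript Xist at 262 CPM and the Y-linked Ddx3y at 98.8 CPM in its RV library, against 3073 and 0 CPM in its LV library. Its RV library thus held both transcripts, and its 2 libraries do not match in them. The RV library of WT animal WT_HBSS_5819 held the atrial transcript Myl7 at 59.8 CPM. The 9 WT RV libraries had the lowest mean depth, at 9.74 M counts, and a mean relative effective length of 1.03, against means of 0.984 to 1.01 in the other groups. Effective length is the part of a transcript from which fragments could be drawn, as estimated per library.

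Levels were compared between genes only per length, as TPM (transcripts per 1e+06 transcripts) averaged over all 64 libraries. The order was led by 2 activators, Psme4 (PA200, a nuclear cap of the core) at 294 TPM and Psme1 (PA28 alpha, a cap induced by interferon) at 263 TPM. Psmb6 followed at 149, the alpha subunit Psma3 at 142, the ATPase Psmc6 at 119 and the 19S lid subunit Psmd11 at 116 TPM. The other constitutive catalytic genes stood at 69.9 TPM for Psmb7 and 49.5 TPM for Psmb5. The immunoproteasome genes lay near the foot of the order, at 17.5 TPM for Psmb8, 11 for Psmb9 and 9.36 for Psmb10. Psme2 (PA28 beta), the partner of Psme1 in the PA28 ring, had 22.8 TPM, far below Psme1. Psma8 averaged 1.61, Psmc3ip 0.883 and Psmb11 0.00406 TPM, so the testis and thymus subunits were at or near 0 in these ventricles.

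Every comparison below was fitted across all genes by edgeR's quasi-likelihood test on the estimated counts, with p-values adjusted by Benjamini and Hochberg over all genes tested, and a gene was called below an adjusted p of 0.05. Fold changes are log2 values with their standard error, and single values per library are CPM on the TMM-scaled library size. In all comparisons 47 members passed the filter on low counts, Psmb11 and Psmc3ip never did, and Psma8 did in some. Because these are whole ventricles, fewer cells of a type and less RNA per cell cannot be told apart.

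In cKO LV called members were mostly lower than in WT LV, among them genes of the 19S cap, both rings of the core and the activators, while Psmb8 and Psmb9 of the immunoproteasome were higher. Of 48 members tested, 21 fell and 4 rose, where 23% of all genes tested fell and 23.6% rose (46.6% in either direction). The median member changed by -0.38 and the median of all genes by 0.05. In cKO RV 7 of 47 members fell and 3 rose, where 20.3% of all genes fell and 22% rose (42.3%), with medians of -0.09 for the members and 0.02 for all genes. The share of members that fell was thus below that of all genes in the RV and above it in the LV. With animals numbered below 5000 alone, the range that holds all 4 cKO animals, 17 members fell and none rose in the LV, and 5 fell and 1 rose in the RV. Without WT animal WT_HBSS_5819, 19 fell and 4 rose in the LV, and 7 fell and 2 rose in the RV.

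Psmc6 gave the largest fall among the 19S ATPases of the LV. It had 46.6, 41.0, 89.1 and 57.4 CPM in the 4 cKO LV libraries, against 107 to 152 CPM with a median of 141 in the 9 WT LV libraries. The groups did not overlap, with a log2 fold change of -1.17 ± 0.18 (edgeR adjusted p = 0.000122). In all, 5 of the 6 ATPases fell in cKO LV (Psmc6, Psmc1, Psmc3, Psmc2 and Psmc5). In cKO RV Psmc6 had 50.8, 43.0, 58.0 and 68.8 CPM, against 61 to 90.7 CPM in WT RV, and was not called, and Psmc1 alone of the ATPases fell (-0.43 ± 0.15, edgeR adjusted p = 0.0317).

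Among the other 19S subunits, 5 of 11 fell in cKO LV, led by the lid subunit Psmd12. It had 67.5, 32.2, 59.1 and 44.5 CPM in cKO LV, against 71.1 to 103 CPM with a median of 97.9 in WT LV, all 4 below the lowest WT library (-0.83 ± 0.18, edgeR adjusted p = 0.00124). In cKO RV the leading fall was that of Psmd7, the lid partner of the deubiquitinase Psmd14. Psmd7 had 28.3, 19.9, 28 and 25.4 CPM in cKO RV, against 34.3 to 55 CPM with a median of 43.3 in WT RV, without overlap (-0.74 ± 0.13, edgeR adjusted p = 0.000361). Psmd8, another lid subunit, went the other way in the RV alone, with 69.8, 37.8, 56.8 and 73.8 CPM in cKO RV, against 30.5 to 60.3 CPM in WT RV, groups that overlapped (0.48 ± 0.19, edgeR adjusted p = 0.0499).

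In the core, 4 of 7 alpha genes fell in cKO LV and 2 of 7 in cKO RV, Psma6 and Psma4 in both. Psma6, an outer-ring subunit, changed by -0.54 ± 0.13 in the LV (edgeR adjusted p = 0.00331) and by -0.45 ± 0.13 in the RV (0.0104). Of the structural beta genes Psmb1 and Psmb2 fell in the LV, Psmb1 by 0.78 ± 0.16 on the log2 scale (edgeR adjusted p = 0.00121), and none was called in the RV, where Psmb2 had the smallest p (-0.19 ± 0.18, adjusted p = 0.426). The assembly chaperone Psmg2 fell in the LV (-0.88 ± 0.21, edgeR adjusted p = 0.00342), while its fellow Psmg3 was higher there at 2.74, 2.94, 5.75 and 3.60 CPM in cKO LV, against 0.309 to 2.70 CPM in WT LV (1.25 ± 0.42, edgeR adjusted p = 0.0228).

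Of the 3 constitutive catalytic genes Psmb7 alone was called, and the differences between the genes were not tested. Psmb7, the subunit of trypsin-like activity, had 38.0, 30.4, 43.0 and 31.9 CPM in cKO RV, against 39.1 to 60.2 CPM with a median of 52.0 in WT RV (-0.44 ± 0.13, edgeR adjusted p = 0.0125). In cKO LV it had 41.1, 32.0, 53.6 and 43.2 CPM, against 56.3 to 67.3 CPM in WT LV, without overlap (-0.55 ± 0.12, edgeR adjusted p = 0.00166). Psmb5, the subunit of chymotrypsin-like activity, and Psmb6, that of caspase-like activity, were called in neither ventricle. Psmb5 differed by -0.09 ± 0.20 in the RV and -0.05 ± 0.22 in the LV (edgeR adjusted p = 0.745 and 0.874), and Psmb6 by -0.04 ± 0.16 and -0.32 ± 0.18 (0.877 and 0.164).

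Of the activators Psme4 fell most. It had 212, 270, 347 and 337 CPM in cKO RV, against 439 to 634 CPM with a median of 536 in WT RV (-0.78 ± 0.14, edgeR adjusted p = 0.000501), and 199, 256, 280 and 416 CPM in cKO LV, against 511 to 903 CPM in WT LV (-1.24 ± 0.20, edgeR adjusted p = 0.000133). The cKO libraries lay below every WT library in both ventricles. Psme1 had 81.2, 64.6, 92.7 and 70.5 CPM in cKO LV, against 114 to 144 CPM with a median of 133 in WT LV, again without overlap (-0.77 ± 0.11, edgeR adjusted p = 5.17e-05). In the RV Psme1 was at 86.6, 70.9, 82.8 and 90.8 CPM in cKO, against 79.1 to 115 CPM in WT (-0.09 ± 0.11, edgeR adjusted p = 0.548). Psme2 fell in cKO LV (-0.54 ± 0.20, edgeR adjusted p = 0.0382) at 8.62, 5.98, 12.6 and 9.32 CPM, against 9.38 to 16.4 CPM in WT LV, overlapping groups, and differed by 0.20 ± 0.25 in the RV (0.538). Psmf1, the inhibitor PI31, differed by -0.01 ± 0.13 in the RV and 0.03 ± 0.20 in the LV, uncalled.

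Of the 3 immunoproteasome genes Psmb10 was called higher in cKO RV, and Psmb8 and Psmb9 in cKO LV. Psmb8 had 19.9, 11.4, 8.94 and 18.0 CPM in cKO RV, against 5.14 to 15.5 CPM with a median of 8.76 in WT RV, overlapping groups, and missed the threshold (0.71 ± 0.29, edgeR adjusted p = 0.0600). In cKO LV it had 9.79, 9.54, 6.37 and 15.7 CPM, against 4.03 to 10.8 CPM with a median of 6.06 in WT LV, and passed it (0.67 ± 0.25, edgeR adjusted p = 0.0413). Psmb9 had 8.65, 17, 7.75 and 12.3 CPM in cKO RV, against 3.40 to 10.9 CPM in WT RV (0.63 ± 0.26, edgeR adjusted p = 0.0626), and 7.84, 13.5, 5.12 and 10.4 CPM in cKO LV, against 2.45 to 9.15 CPM in WT LV (0.84 ± 0.31, edgeR adjusted p = 0.0365).

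Psmb10 passed in the RV alone, at 7.67, 7.95, 11.7 and 14.4 CPM in cKO RV, against 3.91 to 9.15 CPM in WT RV (0.67 ± 0.23, edgeR adjusted p = 0.0264), and differed by 0.18 ± 0.33 in the LV (0.688). Psme2b rose in both ventricles, by 0.93 ± 0.31 in the RV and 1.15 ± 0.43 in the LV (edgeR adjusted p = 0.0263 and 0.0393). These calls were near the threshold. Without cKO animal PKP2_HBSS_3217, Psmb8 in the LV changed by 0.39 (edgeR adjusted p = 0.248) and Psmb10 in the RV by 0.48 (0.137), and without cKO animal PKP2_HBSS_2052, Psmb9 in the LV changed by 0.59 (0.170).

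As a share of the catalytic beta transcripts in TPM, Psmb8, Psmb9 and Psmb10 together made up 11.4 to 23.9% in the 4 cKO RV libraries (18.1 ± 5.14%, SD), against 7.28 to 15.6% in the 9 WT RV libraries (11.3 ± 2.80%). In the LV the share was 8.39 to 24% in cKO (17.5 ± 6.67%), against 6.45 to 11.8% in WT (9.31 ± 1.58%). In each ventricle 3 of the 4 cKO libraries lay above every WT library and the lowest lay within the WT range. In CPM, with no division by length, 3 of 4 did so in the RV and 2 of 4 in the LV, where the third had 17.1% and the highest WT library 17.4%. No test was made of this score. It was 11.4 ± 3.61% in AAV_3E13 RV (n = 8), 9.05 ± 1.51% in AAV_1E14 RV (n = 5) and 12.0 ± 2.90% in AAV_1E14_2.5wk RV (n = 6). In the LV of those groups it was 16 ± 5.09%, 11.4 ± 1.40% and 13.7 ± 3.21%.

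**Figure D1:**
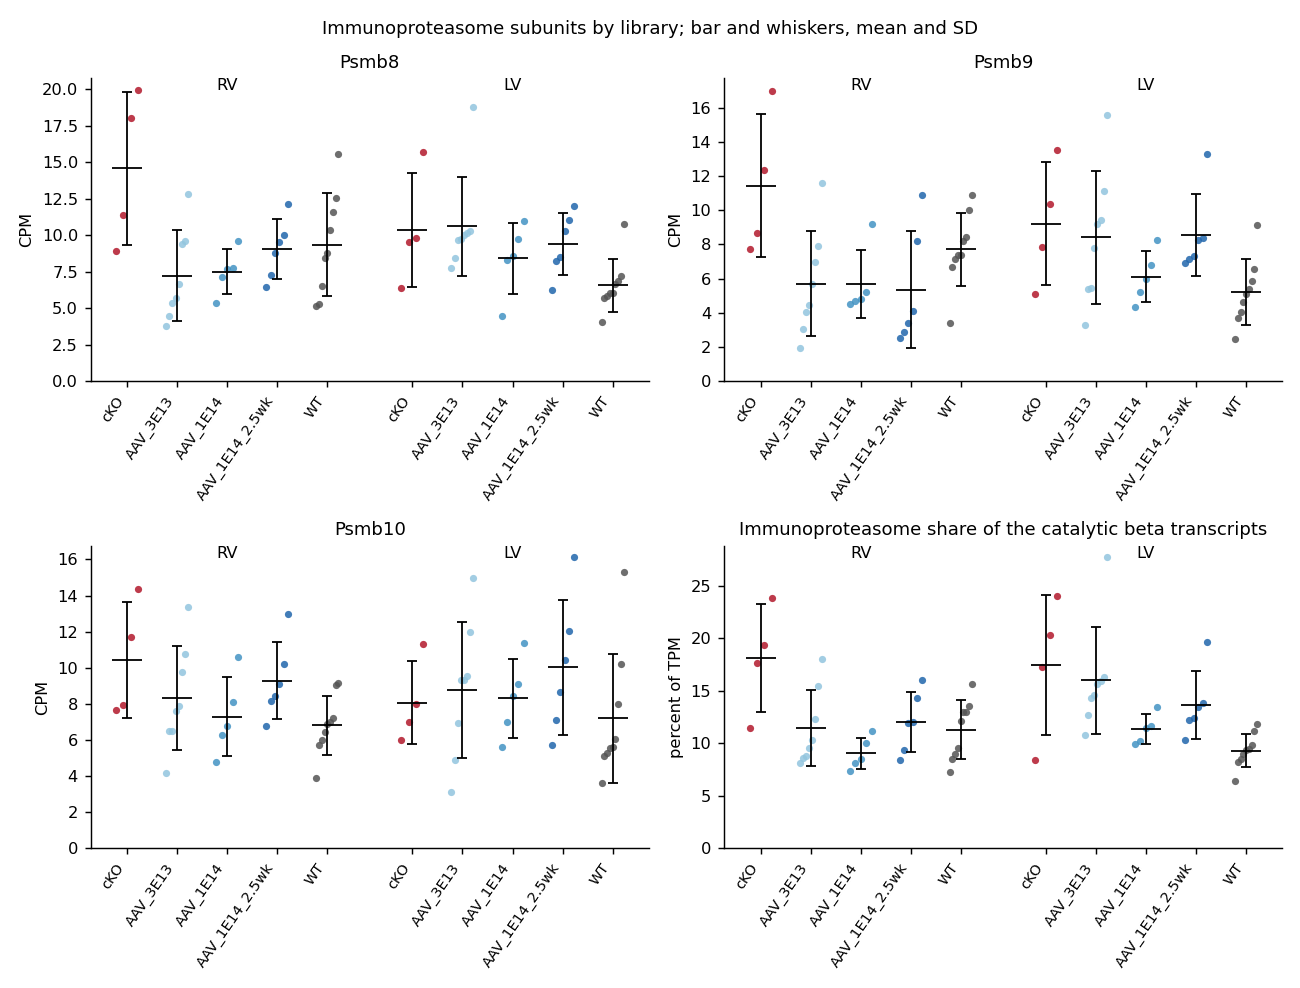
CPM of Psmb8, Psmb9 and Psmb10, and their share of catalytic beta transcripts as a percentage of TPM, in every library by group and ventricle, with bars at the group means. The cKO points spread widely, from 11.4 to 23.9% in the RV and from 8.39 to 24% in the LV.

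Markers of other cells moved with these groups. All 10 leukocyte and macrophage markers were called higher in cKO than in WT in both ventricles, and their summed level was 1367 to 3462 CPM in cKO RV, against 349 to 505 CPM in WT RV, and 801 to 3175 CPM in cKO LV, against 276 to 482 CPM in WT LV. Of 8 cardiomyocyte markers, 6 fell in cKO RV and 8 in cKO LV, with summed levels of 36633 to 95840 CPM in cKO RV, against 105540 to 154570 CPM in WT RV, and 35777 to 79033 CPM in cKO LV, against 144772 to 173081 CPM in WT LV. Of the fibroblast markers 6 of 8 rose in cKO RV and 3 of 8 in cKO LV, with sums of 5326 to 11112 CPM in cKO RV, against 821 to 1510 CPM in WT RV, and 3022 to 7467 CPM in cKO LV, against 965 to 1491 CPM in WT LV. Of 8 endothelial markers 1 fell in cKO RV and 1 rose in cKO LV. None of the leukocyte markers was at 0. T cell transcripts were few, with Cd3e at a mean of 6.32 CPM in cKO RV, against 1.37 CPM in WT RV, and Cd3e and Cd4 were called higher in both ventricles and Cd8a in the LV. Of 10 T and B cell markers only 3 were tested in the RV and 5 in the LV. Ms4a1 was not called in either ventricle, nor Trbc2 in the LV. The part of these cell markers in the proteasome results was not tested.

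Genes that act beside the proteasome were counted from lists. Of 15 genes of MHC class I processing and interferon control, 10 rose and 1 fell in cKO RV and 9 rose and 1 fell in cKO LV. Irf8, an interferon regulatory factor of myeloid cells, rose by 1.92 ± 0.19 in the RV and 1.68 ± 0.24 in the LV (edgeR adjusted p = 2.95e-06 and 6.28e-05), and H2-D1, an MHC class I heavy chain, by 1.17 ± 0.18 and 0.85 ± 0.21 (0.000109 and 0.00401). Of 11 proteasome partners tested, 3 fell in cKO RV and 7 in cKO LV, none rising. AI314180, the gene of the scaffold Ecpas, fell in both (-0.66 ± 0.11 and -0.90 ± 0.13, edgeR adjusted p = 0.000233 and 5.71e-05).

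Of 13 muscle ubiquitin ligases and their factors, 8 fell in cKO RV and 9 in cKO LV. Trim63 (MuRF1), a ligase of sarcomeric proteins, fell by 1.30 ± 0.21 on the log2 scale in the RV and by 1.66 ± 0.17 in the LV (edgeR adjusted p = 0.00016 and 5.37e-06). Of 9 regulators of proteasome genes, 4 rose and 2 fell in cKO RV, and 1 rose and 1 fell in cKO LV. Nfe2l1, the transcription factor that raises proteasome genes when degradation is short, fell by 0.52 ± 0.14 in the RV and by 1.02 ± 0.17 in the LV (edgeR adjusted p = 0.00659 and 0.000191). Ngly1, the enzyme that removes glycans from it, fell by 0.92 ± 0.20 in the RV (0.00182), while Ddi2, the protease that cleaves it, rose there by 0.44 ± 0.11 (0.0048), as did Mafg, Stat3 and Nfe2l2. Of 5 ubiquitin genes, Ubb and Rps27a rose in cKO RV and none was called in cKO LV.

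In AAV_3E13 the called members lay above WT in the RV and mostly below it in the LV. Most members were not called in the RV. In the RV 9 of 47 members rose and none fell, where 11.8% of all genes tested rose and 10% fell (21.8% in either direction). In the LV 25 of 47 fell and 3 rose, where 19.2% of all genes fell and 19.9% rose (39.2% in either direction). The member medians were 0.15 in the RV and -0.28 in the LV, against -0.02 and 0.05 for all genes. With animals numbered 5000 and above alone, 3 vector and 4 WT animals, 1 member fell and none rose in the LV, with those below 5000 20 fell and 2 rose, and with limma on log2(TPM + 1) 10 fell and 3 rose. Within either range fewer members were called in the RV as well, as given below.

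Psme1 in AAV_3E13 RV had 84.5 to 140 CPM with a median of 117, against 79.1 to 115 CPM with a median of 88.5 in WT RV (0.29 ± 0.10, edgeR adjusted p = 0.0448). In AAV_3E13 LV it had 67.1 to 103 CPM with a median of 79.0, all below the 114 to 144 CPM of WT LV (-0.68 ± 0.08, edgeR adjusted p = 4.17e-06). Psmc6 showed the same split, with 0.48 ± 0.09 in the RV (0.00138) and -0.69 ± 0.11 in the LV (0.000124), as did Psmd12 with 0.47 ± 0.09 (0.00163) and -0.73 ± 0.12 (0.000134). In the LV 5 of 6 ATPases, 8 of 11 other 19S subunits, 5 of 7 alpha genes and 3 of 4 activators fell. The RV call of Psme1 lay near the threshold, and without AAV_3E13 animal PKP2_m3e13_2029 its change was 0.24 (edgeR adjusted p = 0.101).

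Psmb7 was lower in AAV_3E13 LV at 35.7 to 49.7 CPM, against 56.3 to 67.3 CPM in WT LV (-0.51 ± 0.08, edgeR adjusted p = 4.37e-05), while Psmb5 and Psmb6 were not called (-0.06 ± 0.19 and -0.18 ± 0.12). Psmb8 was higher there at 7.74 to 18.8 CPM with a median of 9.89, against 4.03 to 10.8 CPM with a median of 6.06 in WT LV (0.71 ± 0.19, edgeR adjusted p = 0.00596). Psmb9 followed at 0.71 ± 0.28 (0.0480) and Psme2b at 1.11 ± 0.32 (0.0106), whereas Psmb10 was not called (0.31 ± 0.30). Without animal PKP2_m3e13_2048, the highest for Psmb8, Psmb9 changed by 0.53 (edgeR adjusted p = 0.133). In the RV none of the 3 was called (Psmb8 -0.37 ± 0.26, Psmb9 -0.44 ± 0.29 and Psmb10 0.29 ± 0.21).

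The leukocyte sum was 424 to 897 CPM in AAV_3E13 LV, against 276 to 482 CPM in WT LV, with 9 of 10 markers called higher, and the cardiomyocyte sum 97281 to 129613 CPM, against 144772 to 173081 CPM, with 7 of 8 called lower. In the RV the leukocyte sum was 469 to 1141 CPM, against 349 to 505 CPM in WT RV, with 5 of 10 higher, and of the 8 cardiomyocyte markers 1 rose and 2 fell. Of 8 endothelial markers 7 rose in the LV and 5 fell in the RV, with sums of 1882 to 2782 CPM in AAV_3E13 LV, against 1659 to 2064 CPM in WT LV, and 1506 to 2030 CPM in AAV_3E13 RV, against 1778 to 2586 CPM in WT RV. Of 8 fibroblast markers 7 rose in each ventricle. The proteasome partners divided as the members did, with 4 of 11 higher in the RV and 7 of 11 lower in the LV, as did the muscle ligases, with 3 of 13 higher and 8 of 13 lower. How far the markers bear on the members was not tested.

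At the dose of 1e14 every member called in the RV was higher than in WT, although most members were not called. In AAV_1E14 RV 18 of 47 rose and none fell, where 15.4% of all genes rose and 14.1% fell (29.5% in either direction), with a member median of 0.29 against -0.06 for all genes. In AAV_1E14_2.5wk RV 22 of 47 rose and none fell, where 17.8% of all genes rose and 18.5% fell (36.3%), with medians of 0.30 and -0.02. The calls spanned the ATPases, the lid, the alpha and beta rings and the activators in both groups.

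Psmc6 stood at 148, 121, 117, 132 and 120 CPM in the 5 AAV_1E14 RV libraries, against 61 to 90.7 CPM with a median of 65.2 in WT RV (0.84 ± 0.10, edgeR adjusted p = 0.000132). It stood at 123 to 144 CPM with a median of 136 in AAV_1E14_2.5wk RV (0.92 ± 0.09, edgeR adjusted p = 3.04e-06). Neither group overlapped with WT RV, although both lay close to the 107 to 152 CPM of WT LV. Psmd12 rose by 0.62 ± 0.10 and 0.78 ± 0.09 (0.000657 and 1.4e-05), and Psmb1, a structural beta subunit, by 0.72 ± 0.14 and 0.56 ± 0.12 (0.00166 and 0.00187), also without overlap.

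Psme1 had 149, 145, 108, 152 and 127 CPM in AAV_1E14 RV, against 79.1 to 115 CPM in WT RV (0.56 ± 0.10, edgeR adjusted p = 0.00127), and 112 to 167 CPM in AAV_1E14_2.5wk RV (0.53 ± 0.10, edgeR adjusted p = 0.000766). Psmb7 rose by 0.41 ± 0.10 and 0.26 ± 0.09 (0.00817 and 0.0366). Psmb5 (-0.07 ± 0.19 and -0.30 ± 0.16), Psmb6 (0.18 ± 0.14 and -0.12 ± 0.12) and Psme2 (0.11 ± 0.17 and 0.35 ± 0.18) were not called in either group. None of the immunoproteasome genes was called in the RV at this dose, the values being -0.32 ± 0.25 and -0.05 ± 0.23 for Psmb8, -0.45 ± 0.25 and -0.53 ± 0.32 for Psmb9, and 0.09 ± 0.22 and 0.44 ± 0.18 for Psmb10.

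**Figure D2:**
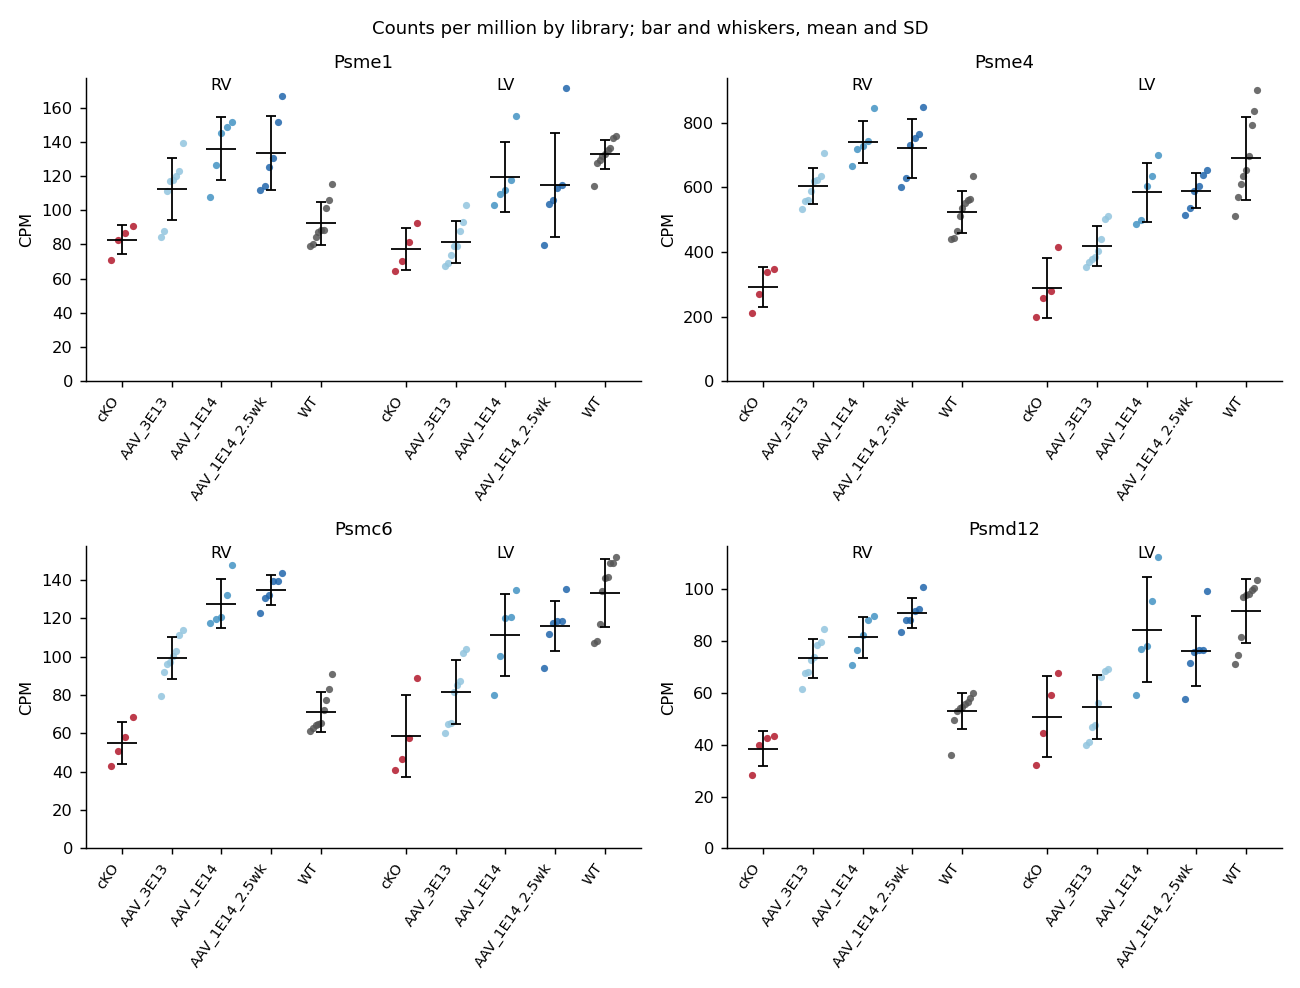
CPM of Psme1, Psme4, Psmc6 and Psmd12 in every library by group and ventricle, with bars at the group means. Psmc6 lies at 117 to 148 CPM in AAV_1E14 RV and 123 to 144 CPM in AAV_1E14_2.5wk RV, above the 61 to 90.7 CPM of WT RV, and at 41.0 to 89.1 CPM in cKO LV, below the 107 to 152 CPM of WT LV.

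In the LV no member was called at that dose. AAV_1E14 LV gave 0 of 48 by edgeR, with 2 members at an unadjusted p below 0.05 and 0 by DESeq2, where 0.0075% of all genes rose and 0% fell. AAV_1E14_2.5wk LV gave 0 of 48 by edgeR, with 4 at an unadjusted p below 0.05 and 0 by DESeq2, where 0.859% of all genes rose and 0.633% fell (1.49% in either direction). Psme1 differed by -0.14 ± 0.09 and -0.20 ± 0.12 and Psmc6 by -0.25 ± 0.12 and -0.18 ± 0.10. Psmb8 differed by 0.36 ± 0.22 and 0.52 ± 0.19 and Psmb9 by 0.23 ± 0.26 and 0.72 ± 0.24, which at these sample sizes does not show that they were at the WT level.

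The RV calls of all 3 vector groups were measured against the WT RV libraries, whose mean depth and mean relative effective length stand apart as given above, and their part in them was not tested. With offsets for effective length the RV counts were 7 higher for AAV_3E13, 11 for AAV_1E14 and 18 for AAV_1E14_2.5wk, with none lower. Without WT animal WT_HBSS_5819 they were 7, 16 and 19 higher, with 1 lower in AAV_3E13, and without animal PKP2_m1e14_2.5wk_5814 the last count was 19. With animals numbered below 5000 alone the AAV_1E14 RV count was 0, from 2 vector and 5 WT animals, and with those numbered 5000 and above it was 18. The AAV_3E13 RV count was 2 and 0 in those ranges. All AAV_1E14_2.5wk animals are in the upper of those ranges, whereas the WT animals are in both.

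Markers of several cell types moved with the RV calls. Of 8 cardiomyocyte markers, 6 rose and 1 fell in AAV_1E14 RV and 3 rose and 1 fell in AAV_1E14_2.5wk RV, with summed levels of 143108 to 169006 CPM and 120860 to 166094 CPM, against 105540 to 154570 CPM in WT RV. All 8 endothelial markers fell in both groups, with sums of 1367 to 1732 CPM in AAV_1E14 RV and 1335 to 1669 CPM in AAV_1E14_2.5wk RV, against 1778 to 2586 CPM in WT RV. Of 8 fibroblast markers none was called in AAV_1E14 RV and 6 rose in AAV_1E14_2.5wk RV, and of 10 leukocyte markers 2 and 5 rose. The part of these markers was not tested. Of 11 partners 7 rose and 1 fell in AAV_1E14 RV, and 5 rose in AAV_1E14_2.5wk RV. Ubqln1, a shuttle of ubiquitinated proteins, rose by 0.57 ± 0.09 and 0.44 ± 0.08 (edgeR adjusted p = 0.000378 and 0.00044), and Pomp, the maturation factor of the core, by 0.54 ± 0.10 and 0.75 ± 0.10 (0.00135 and 3.68e-05). Nfe2l1 rose by 0.39 ± 0.08 and 0.55 ± 0.09 (0.00341 and 0.000175), and the ligase Fbxo32 (atrogin-1) by 0.77 ± 0.08 and 0.94 ± 0.08 (0.000128 and 1.34e-06). Of 15 MHC and interferon genes, 1 rose and 1 fell in AAV_1E14 RV and 3 rose and 1 fell in AAV_1E14_2.5wk RV.

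The vector groups were also set against untreated cKO, which shares its libraries among the 3 comparisons of each ventricle. All cKO animals are in the lower range of animal numbers and all AAV_1E14_2.5wk animals in the upper. Group and number range thus cannot be told apart when AAV_1E14_2.5wk is set against cKO, in either ventricle. In the RV no immunoproteasome gene was called higher than in cKO, Psmb8 and Psmb9 being called lower and Psmb10 not called. The members called higher came from the 19S cap, the core, the activators, among them Psme1, and the chaperone Psmg2. In AAV_3E13 RV 18 of 48 members were higher and 3 lower, where 19.4% of all genes were higher and 22.6% lower (42% in either direction). In AAV_1E14 RV 22 of 47 were higher and 3 lower (24.2% and 26.4% of all genes, 50.6% in either direction), and in AAV_1E14_2.5wk RV 22 of 48 were higher and 3 lower (22.6% and 25.2% of all genes, 47.9% in either direction). The 3 lower members were Psmb8, Psmb9 and Psme2b in each.

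Psme4 was at 535 to 706 CPM in AAV_3E13 RV, 666 to 847 in AAV_1E14 RV and 600 to 848 in AAV_1E14_2.5wk RV, against 212 to 347 CPM in cKO RV. The log2 differences were 1.01 ± 0.14, 1.33 ± 0.17 and 1.28 ± 0.16 (edgeR adjusted p = 8.7e-05, 9.37e-05 and 0.000112), with no overlap. Psmc6 gave 0.80 ± 0.13, 1.20 ± 0.14 and 1.26 ± 0.12 (0.000267, 7.6e-05 and 3.46e-05). Psmb7 gave 0.62 ± 0.12, 0.90 ± 0.14 and 0.73 ± 0.13 (0.00123, 0.000443 and 0.000745).

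Psmb8 was at 3.75 to 12.8 CPM in AAV_3E13 RV, 5.38 to 9.61 in AAV_1E14 RV and 6.42 to 12.2 in AAV_1E14_2.5wk RV, against 8.94 to 19.9 CPM in cKO RV, ranges that overlap. The differences were -1.06 ± 0.31, -0.97 ± 0.27 and -0.72 ± 0.25 (edgeR adjusted p = 0.0145, 0.0103 and 0.0327). Psmb9 gave -1.06 ± 0.39, -1.03 ± 0.31 and -1.12 ± 0.42 (0.0406, 0.0166 and 0.0455). Its effective length was longest in cKO RV, at 1702 ± 246 bases (SD, n = 4), and with length offsets the differences were -0.27, -0.76 and -0.40 (edgeR adjusted p = 0.647, 0.0874 and 0.537), so those calls depend on that choice. All 10 leukocyte markers were lower than in cKO RV in each comparison. Of 8 cardiomyocyte markers 6 were higher in AAV_3E13 RV, 7 in AAV_1E14 RV and 7 in AAV_1E14_2.5wk RV, with none lower. Of 8 endothelial markers 3, 4 and 4 were lower, and of 8 fibroblast markers 3 were lower in each, with 1 higher in AAV_3E13 RV. Their part was not tested.

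In the LV the 3 groups gave different counts against cKO. AAV_3E13 LV had 0 of 47 members called by edgeR, with 3 at an unadjusted p below 0.05 and 1 by DESeq2, where 8.58% of all genes were higher and 9.45% lower (18% in either direction). AAV_1E14 LV had 10 of 47 higher and none lower (17.3% and 18.1% of all genes, 35.4% in either direction), and AAV_1E14_2.5wk LV 13 of 48 higher and none lower (17.4% and 15.9%, 33.3% in either direction). Psme4 differed by 0.49 ± 0.18, 0.99 ± 0.22 and 1.03 ± 0.19 (edgeR adjusted p = 0.0675, 0.00623 and 0.00264). None of the immunoproteasome genes was called in the LV against cKO, Psmb8 being at -0.01 ± 0.27, -0.33 ± 0.31 and -0.15 ± 0.27. Without cKO animal PKP2_HBSS_3213, whose LV had the most Psmc6 of the 4, the counts were 3, 21 and 20. In the LV 3, 7 and 7 of 8 cardiomyocyte markers were higher and 8, 10 and 9 of 10 leukocyte markers lower than in cKO, and their part was not tested.

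The dose comparison set AAV_1E14 against AAV_3E13. In the LV 11 of 47 members were higher at 1e14 and none lower, where 10.8% of all genes were higher and 8.26% lower (19% in either direction). Psme1 led the activators, at 155, 103, 109, 112 and 118 CPM in AAV_1E14 LV, against 67.1 to 103 CPM in AAV_3E13 LV (0.53 ± 0.12, edgeR adjusted p = 0.00642), with the lowest library of AAV_1E14 just above the highest of AAV_3E13. Psmb2, a structural beta subunit, was higher by 0.46 ± 0.11 (0.0101) and Psmd11 by 0.26 ± 0.07 (0.0165). In the RV 3 of 48 were higher and none lower (5.02% and 4.95% of all genes, 9.97% in either direction), namely Psmc6 (0.34 ± 0.09, edgeR adjusted p = 0.0251), Psmd1 (0.24 ± 0.07, 0.0480) and Psme4 (0.27 ± 0.08, 0.0428). With 1 fit over all groups none of these was called, and on log2(TPM + 1) Psme4 turned round (-0.062). Of 8 cardiomyocyte markers 6 were higher in the LV and 3 in the RV, of 8 fibroblast markers 7 and 6 were lower, and of 10 leukocyte markers 2 and 1 were lower, and their part was not tested. Within either range of animal numbers no member was called in either ventricle. Without AAV_1E14 animal PKP2_m1e14_2034 the LV count was 4 and the RV count 0, without AAV_1E14 animal PKP2_m1e14_2043 the LV count was 17, and without AAV_1E14 animal PKP2_m1e14_5822 they were 5 and 0.

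Dosing 2.5 weeks after tamoxifen was compared with the early dosing at the same 1e14. No member was called in the RV by edgeR or DESeq2, with 3 at an unadjusted p below 0.05, where 4.97% of all genes were higher and 3.95% lower (8.93% in either direction). None was called in the LV by either tool, with 1 at an unadjusted p below 0.05, where 0% of all genes were called in either direction. Psmc5, an ATPase, had the smallest p in the RV among the ATPases (0.33 ± 0.11, edgeR adjusted p = 0.0841), and Psmb9 the smallest among the immunoproteasome genes of the LV (0.49 ± 0.22, 0.670).

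Within WT hearts, the RV was set against the LV of the same animals, without pairing in the main fit. Of 47 members 20 were lower in the RV and none higher, where 15.4% of all genes were lower and 12.3% higher (27.7% in either direction), with a member median of -0.22 against 0.03 for all genes. Psmc6 was at 61 to 90.7 CPM in WT RV and 107 to 152 CPM in WT LV (-0.91 ± 0.09, edgeR adjusted p = 3.27e-06). Psmd12 was at 35.9 to 59.9 CPM in WT RV and 71.1 to 103 CPM in WT LV (-0.79 ± 0.10, edgeR adjusted p = 1.37e-05). Psme1 was at 79.1 to 115 CPM in WT RV and 114 to 144 CPM in WT LV (-0.53 ± 0.07, edgeR adjusted p = 4.71e-05). Psmb8 and Psmb9 had 0.51 ± 0.21 and 0.57 ± 0.22 and missed the threshold (0.0803 and 0.0640). With the animal as a block 21 members were lower and 1 higher, and with effective length offsets 14 were lower and 1 higher. Without animal WT_HBSS_5819, whose RV library held atrial transcript, 17 were lower and 1 higher. Of 8 cardiomyocyte markers 7 were lower in the WT RV and of 8 endothelial markers 4 were higher (Vwf, Pecam1, Tie1 and Egfl7), and the part of these and of the effective lengths was not tested.

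Whether a group differed from WT by another amount in the RV than in the LV was tested as an interaction, with positive values for a larger difference in the RV. For AAV_3E13 25 of 48 members were positive and 3 negative, where 18.8% of all genes were positive and 18.1% negative (36.9% in either direction). For AAV_1E14 it was 18 and 0 of 48 (11.4% and 8.61% of all genes, 20% in either direction), and for AAV_1E14_2.5wk 16 and 1 of 48 (10.7% and 7.72%, 18.4% in either direction). For cKO it was 0 and 0 of 48 by edgeR, with 8 at an unadjusted p below 0.05 and 2 by DESeq2, where 0% of all genes were positive and 0.0272% negative, and with the animal as a block 4 were positive and none negative.

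Psmc6 and Psme1 were among the members called positive in all 3 vector groups. Psmc6 had 1.18 ± 0.15 in AAV_3E13, 1.09 ± 0.16 in AAV_1E14 and 1.13 ± 0.13 in AAV_1E14_2.5wk (edgeR adjusted p = 4.08e-07, 0.00013 and 1.48e-05), and Psme1 had 0.98 ± 0.13, 0.70 ± 0.14 and 0.75 ± 0.16 (7.41e-07, 0.00113 and 0.00168). In cKO they had 0.83 ± 0.22 and 0.64 ± 0.15 (0.196 and 0.140). The 3 negative members of AAV_3E13 were Psmb8 (-1.07 ± 0.33, 0.0107), Psmb9 (-1.14 ± 0.41, 0.0281) and Psme2b (-1.30 ± 0.43, 0.0174), and that of AAV_1E14_2.5wk was Psmb9 (-1.23 ± 0.41, 0.0327). All 4 interactions share the WT libraries of both ventricles, so they are not independent of each other.

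Psme1 was the member whose estimated effective length moved most between groups. It was 1209 to 1442 bases in the 4 cKO RV libraries (mean 1326 ± 104, SD), 649 in AAV_3E13 RV, 676 in AAV_1E14 RV and 669 in AAV_1E14_2.5wk RV on average, and 680 to 1147 in WT RV (mean 927). In the LV the means were 1063 in cKO, 970 in AAV_3E13, 710 in AAV_1E14 and 837 in AAV_1E14_2.5wk, against 749 in WT. The highest group mean was 2.04 times the lowest, where the median over the members was 1.14 and 4 members reached 1.5 times (Psme1, Psmc3ip, Psmb9 and Psmg4). Because TPM divides by this length, Psme1 averaged 104 TPM in cKO RV, against 184 TPM in WT RV, while its CPM there hardly differed. With length offsets in the fit, the LV change of Psme1 in cKO was -1.26, against -0.77 without them, and the RV rise in AAV_1E14 was 0.96, against 0.56.

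**Figure D3:**
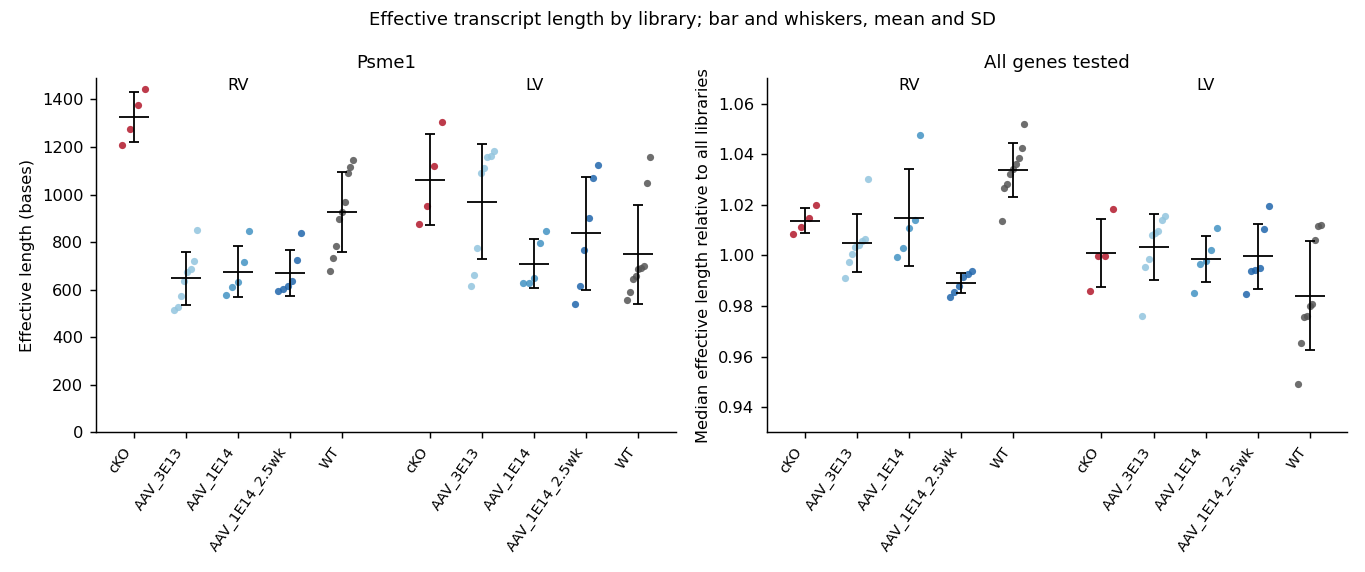
Estimated effective length of Psme1 in bases, and the median relative effective length of all genes, in every library by group and ventricle, with bars at the group means. Psme1 lies at 1209 to 1442 bases in cKO RV, above all libraries of the other RV groups. WT RV has the highest group mean of relative length over all genes (1.03), although single libraries overlap with other groups.

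In genome order (GRCm39) Psmb8 lies on chromosome 17 at 34416690 to 34420428 and Psmb9 near it at 34400960 to 34406738, both in the MHC region. Psme1 lies on chromosome 14 at 55815190 to 55822034 and its partner Psme2 near it at 55824895 to 55829173, on the opposite strand. Both are protein-coding. Psmb10 lies at 106662362 to 106665077 on chromosome 8, away from the MHC region.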

How the data were processed

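RNA of 64 ventricle libraries from 32 mice was sequenced. The authors trimmed reads with fastp, quantified them with Salmon 1.8.0 with its bias corrections against GENCODE mouse transcripts (GRCm39). They then made gene-level values with tximport. The labels name polyA RNA and a ribosomal depletion kit side by side. The deposited expected counts, per gene and library, are estimates that need not be whole, and were rounded here, which changed no library total by more than 0.000733%. The authors' TPM values are scaled per transcript length and library and include mitochondrially encoded genes. The deposited effective lengths per gene and library come from the same run.

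Of 39153 rows, 12237 had no count and 1 no name. Rows without a name and 37 mitochondrially encoded genes were left out of library sizes and tests. edgeR 4.0.16 in R 4.3.3 was used (TMM, filterByExpr on the libraries compared, quasi-likelihood F test), with Benjamini-Hochberg adjusted p below 0.05 as the call. Standard errors are the fold change divided by the square root of F. The fits were also run on simulated counts with 200 changed genes, drawn independently for each library. Those counts hold no pairing of ventricles, and no threshold of recovery was set for the interaction. Alternatives used DESeq2 1.42.0, limma 3.58.1 on log2(TPM + 1), median-ratio factors, no filter, length offsets, 1 fit over all groups, ranges of animal numbers and each animal left out. Animals are labelled by number, so a number pairs the 2 ventricles of 1 animal. Their deviations correlated with a median r of 0.154 over 15313 genes (-0.0463 for animal PKP2_m1e14_2.5wk_5814 to 0.628, above 0.1 in 22 of 32, and -0.0263 between different animals). The main fit had no block, as in the study's own tests, and the animal was the block in an alternative.

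Named in full were Psmb5 to Psmb10 of the catalytic genes, Psme1 and Psme2 against WT, and otherwise the member of each role with the smallest p, called members that ran against their role, and up to 3 genes with the smallest p of each other list. Psme4, Psme2b, Psmd8 and the effective lengths of Psme1 and Psmb9 were added after their values were seen. The members and lists were chosen with earlier results of these data known. The study's own comparisons were not used. Motifs were searched in RefSeq promoters. Within a ventricle each animal counted as 1 replicate. The main fits across both ventricles took its 2 libraries as separate observations.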

Additional observations from a re-analysis of the deposited data

Results flagged for a closer look

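Of 90 groups of 4 to 9 libraries examined for the catalytic genes, Psme1, Psme2 and the immunoproteasome share, 12 had a library far from the rest of its group, where chance gives about 1 in 20. In AAV_1E14 these were Psmb5 in the RV of animal PKP2_m1e14_5726 (38.6 CPM, the others 23.3 to 25.2) and in the LV of animal PKP2_m1e14_2034 (27.1 CPM, the others 23.4 to 23.8), Psmb7 in the RV of animal PKP2_m1e14_2043 (52.9 CPM, the others 67.4 to 72.9), Psmb9 in the same library (9.20 CPM, the others 4.49 to 5.21), and Psme1 in the LV of animal PKP2_m1e14_2034 (155 CPM, the others 103 to 118). In AAV_1E14_2.5wk they were Psmb6 in the RV of animal PKP2_m1e14_2.5wk_5810 (46.6 CPM), Psme2 in its LV (9.12 CPM), and Psmb9 in the LV of animal PKP2_m1e14_2.5wk_5807 (13.3 CPM). In AAV_3E13 LV animal PKP2_m3e13_2048 stood apart in Psmb8 (18.8 CPM) and in the immunoproteasome share (27.8%). In WT animal WT_HBSS_5803 stood apart in Psmb8 of the LV (10.8 CPM) and in Psme2 of the RV (5.81 CPM).

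The interaction test called 28 members in AAV_3E13, 18 in AAV_1E14 and 17 in AAV_1E14_2.5wk, of which those chosen by the rule for named genes are given here. For AAV_3E13 they were Psmc6 (1.18, edgeR adjusted p = 4.08e-07), Psmd12 (1.21, 4.68e-07), Psme1 (0.98, 7.41e-07), Psmb7 (0.68, 1.3e-05), Psma1 (0.80, 2.54e-05), Psmb1 (0.91, 0.00027), Psmg2 (1.01, 0.00073) and Psmd5 (0.45, 0.0207) on the side of the RV, and Psmb8 (-1.07, 0.0107), Psme2b (-1.30, 0.0174) and Psmb9 (-1.14, 0.0281) on the other side. For AAV_1E14 they were Psmc6 (1.09, edgeR adjusted p = 0.00013), Psmd1 (0.67, 0.00047), Psme1 (0.70, 0.00113), Psmb1 (0.84, 0.00144), Psma1 (0.67, 0.00364), Psmb7 (0.52, 0.013), Psma8 (3.31, 0.0238) and Psmg2 (0.64, 0.0419), where Psma8 rests on 0 to 3 CPM per library. For AAV_1E14_2.5wk they were Psmc6 (1.13, edgeR adjusted p = 1.48e-05), Psmd12 (1.05, 5.99e-05), Psme1 (0.75, 0.00168), Psma1 (0.53, 0.00368), Psmb1 (0.58, 0.0179), Psmb7 (0.41, 0.0184) and Psmb9 (-1.23, 0.0327). All are set against the same WT libraries.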

How the results depend on the processing

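Counts below are of members called in either direction. With 1 fit over all groups, cKO RV against WT gave 16, AAV_3E13, AAV_1E14 and AAV_1E14_2.5wk LV against cKO 3, 19 and 21, and AAV_1E14 against AAV_3E13 RV 0. With animals numbered below 5000, cKO RV against WT gave 6, AAV_3E13 RV 2 and AAV_1E14 RV 0, AAV_1E14 against cKO 12 in the RV and 0 in the LV, and AAV_1E14 against AAV_3E13 0 in both ventricles. With animals numbered 5000 and above, AAV_3E13 against WT gave 0 in the RV and 1 in the LV, and AAV_1E14 against AAV_3E13 0 in both. On log2(TPM + 1) with limma, AAV_3E13 RV against WT gave 17, cKO LV and AAV_3E13 LV 13 each, the 3 vector groups LV against cKO 1, 3 and 7, AAV_1E14 against AAV_3E13 0 in the RV and 3 in the LV, late against early dosing RV 1, WT RV against LV 13, and the interactions of AAV_1E14 and AAV_1E14_2.5wk 11 and 5. There Psme4 turned round between AAV_1E14 and AAV_3E13 RV (-0.062). With length offsets AAV_1E14 RV against WT gave 11, AAV_1E14 against AAV_3E13 LV 6 and the AAV_1E14_2.5wk interaction 9. DESeq2 gave 1 for AAV_3E13 LV against cKO and 2 for the cKO interaction, and no filter gave 1 for AAV_1E14 against AAV_3E13 RV. The replicate block, which pairs the ventricles of 1 animal, gave 4 for the cKO interaction and moved no other count by over 1.5 times. The causes were not tested.

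Leaving out each animal in turn, the counts ranged over 0 to 1 for AAV_1E14_2.5wk LV against WT, 0 to 3, 5 to 21 and 8 to 20 for the LV of the 3 vector groups against cKO, 0 to 3 in the RV and 4 to 17 in the LV for AAV_1E14 against AAV_3E13, and 11 to 22 and 9 to 19 for the interactions of AAV_1E14 and AAV_1E14_2.5wk. The deciding animals were PKP2_HBSS_2052, PKP2_HBSS_3213, PKP2_HBSS_3217, PKP2_m1e14_2034, PKP2_m1e14_2043, PKP2_m1e14_5726, PKP2_m1e14_5822, PKP2_m1e14_5825, PKP2_m3e13_2045, PKP2_m3e13_2047, PKP2_m3e13_2048, PKP2_m3e13_5759, PKP2_m3e13_5809, PKP2_m1e14_2.5wk_5755, PKP2_m1e14_2.5wk_5801 and PKP2_m1e14_2.5wk_5807. From CPM, which does not divide by length, the immunoproteasome share was 23.5% in cKO RV, 11.1% in AAV_1E14 RV and 14.4% in WT RV, and 20.7% in cKO LV, 14.0% in AAV_1E14 LV and 11.5% in WT LV. Of 2674 refits of 133 named calls, 2325 kept their call and direction, 348 missed the threshold and 1 reversed. Many named calls were chosen for the smallest p, so these counts need not hold for the other calls. Most refits left out 1 animal, where 1527 kept their call and 202 missed the threshold. With animals numbered 5000 and above 14 kept it and 25 missed, and with those below 5000 39 kept it and 36 missed. The immunoproteasome genes have few counts per library, with Psmb8 at most 19.9 CPM in any library, which limits their precision.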
